A study of Homo sapiens with 4 samples.

Results

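ADAM19 is a metalloprotease of the ADAM family, many of whose members sit in the cell membrane and cut the outer part of other membrane proteins free. Its transcript was described together with those of 6 related membrane-anchored proteases, ADAM8, ADAM9, ADAM10, ADAM12, ADAM15 and ADAM17, in A549 cells, a human lung adenocarcinoma cell-line. The 7 genes were taken by symbol from the array's annotation, which gave them 11 of the 21834 named probes and 7 of the 16922 named genes. ADAM19 was chosen by its measured difference in normalized signal between the cell-lines on these same arrays, so its values are given below as a description, with no p-value and no weight placed on its call in the fit. The other genes were taken for their kinship to it.

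A549/vec cells carried the empty pLemiR lentiviral vector, and A549/146b cells carried the same vector with the human pre-miR-146b sequence placed behind the coding region of TurboRFP, a red fluorescent protein, under a CMV promoter. Both were puromycin-selected populations of A549 cells, so that the vector and the selection were common to both. Each cell-line was 1 transduced population and its replicates were cultures of it, so the transduction was not replicated. An effect of the inserted sequence and a difference that arose while the cell-lines were made cannot be told apart here. The paper itself names such genomic changes as a possible source of the transcripts that were higher. The cell-lines were grown concurrently on 2 occasions, and RNA of each culture was put on 1 array, giving 4 arrays with 2 replicates a cell-line. The microRNA itself has no named probe on these mRNA arrays, and its level was therefore not measured here.

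Pre-miR-146b lies on chromosome 10 in the reference genome, and each of its arms gives a mature microRNA. The mature sequences are shown because they are the only designed difference between the 2 cell-lines. They are written 5′ to 3′ from RefSeq (GRCh38.p14), with the seed, bases 2 to 8, in capitals.
hsa-miR-146b-5p: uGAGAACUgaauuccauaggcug
hsa-miR-146b-3p: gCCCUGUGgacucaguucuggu
The 5p arm is 23 bases long and the 3p arm 22, and the seeds GAGAACU and CCCUGUG differ, so that the vector supplied microRNAs of 2 seed families. A search of the ADAM transcripts for matches to these seeds was not run.

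As background, an ADAM protease is made with a prodomain that keeps it inactive until furin-type proprotein convertases remove it in the secretory pathway. Behind it follow a metalloprotease domain, a disintegrin domain that can bind integrins, a membrane anchor and a short cytoplasmic tail. The cleavage, called shedding, releases growth factors, cytokines and the outer parts of receptors and adhesion molecules, and for some substrates it is followed by a cut within the membrane by gamma-secretase. TIMPs, the tissue inhibitors of metalloproteases, hold several ADAMs back. ADAM19, also called meltrin beta, is known in the mouse for shedding neuregulin 1 and for a role in the developing heart.

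Expression is given as the normalized signal, a linear intensity that has no absolute unit, so each probe was compared only with itself across arrays. A probe was taken as detected on an array where its detection p-value, which sets its signal against negative control beads, was under 0.01. Of the 24526 probes on the array, 10559 (43.1%) were detected on at least 1 array, and only these were tested. The lowest detected normalized signal was 104 in A549/vec and 111 in A549/146b. The mean signal before normalization ran from 394 to 480 and 39.2% to 42.1% of probes were detected per array.

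Among the 11 ADAM probes, 6 probes of 4 genes, ADAM19, ADAM9, ADAM15 and ADAM17, were detected, each on all 4 arrays. The other 5 probes, of ADAM8, ADAM10 and ADAM12, were detected on none. The gap at the limit was wide, as the highest detection p of a detected ADAM probe was 0.00324 (ADAM15) and the lowest of the undetected probes was 0.0291 (ADAM10). For comparison, 49.0% of the named genes on the array had a tested probe.

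The ADAM19 probe, annotated to transcript NM_033274, gave normalized signals of 305 and 333 in the A549/vec replicates 1 and 2. In A549/146b the signals were 440.0 and 587. Both A549/146b arrays were thus above both A549/vec arrays, and the lower of the former was 1.32-fold above the higher of the latter. The A549/vec arrays averaged 319 ± 19.7 and the A549/146b arrays 513 ± 104 (SD, n = 2 each).

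Within an occasion, the ADAM19 signal was 1.44-fold higher in A549/146b on occasion 1 and 1.76-fold higher on occasion 2. On the log2 scale these differences were 0.53 and 0.82, with a mean of 0.67 ± 0.20 (SD, n = 2 occasions), or 1.60-fold. The A549/vec duplicates differed by 0.13 on this scale, less than either difference between the cell-lines. The A549/146b duplicates differed by 0.42, so that the size of the ADAM19 difference varied with the A549/146b array read. Against the mean of both A549/vec arrays, without regard to occasion, it was 0.47 for A549/146b replicate 1 and 0.88 for replicate 2.

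A spread of this kind between the A549/146b duplicates was uncommon in the normalized signals. Only 2.51% of the tested probes had A549/146b duplicates at least as far apart as those of ADAM19, whereas 55.2% had A549/vec duplicates at least as far apart as its own. The order of ADAM19 among the 10559 tested probes differed between the occasions. Its difference was the 336th highest on occasion 1, the 4th highest on occasion 2 and the 10th highest by the mean. Differences over all tested probes ran larger on occasion 1, whereas that of ADAM19 was larger on occasion 2. A size of 0.12 was exceeded by 67.3% of the tested probes on occasion 1 (taken at ADAM17) and by 41.0% on occasion 2 (taken at ADAM9). What moved the order of ADAM19 was not tested.

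The higher ADAM19 signal of the A549/146b arrays was already present before normalization. The signals before normalization were 258.9 and 356.8 in A549/vec and 439.4 and 531.1 in A549/146b, again without overlap. Before normalization the ratio of A549/146b to A549/vec was larger on occasion 1, whereas after it the ratio was larger on occasion 2. The A549/vec duplicates were also further apart in ratio than the A549/146b duplicates before normalization, the reverse of the order after it. The occasion order and duplicate spread given above are therefore those of the normalized signals. Re-normalizing these signals by neqc, by quantiles or by the median gave mean log2 differences of 0.76, 0.69 and 0.69.

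**Figure D1:**
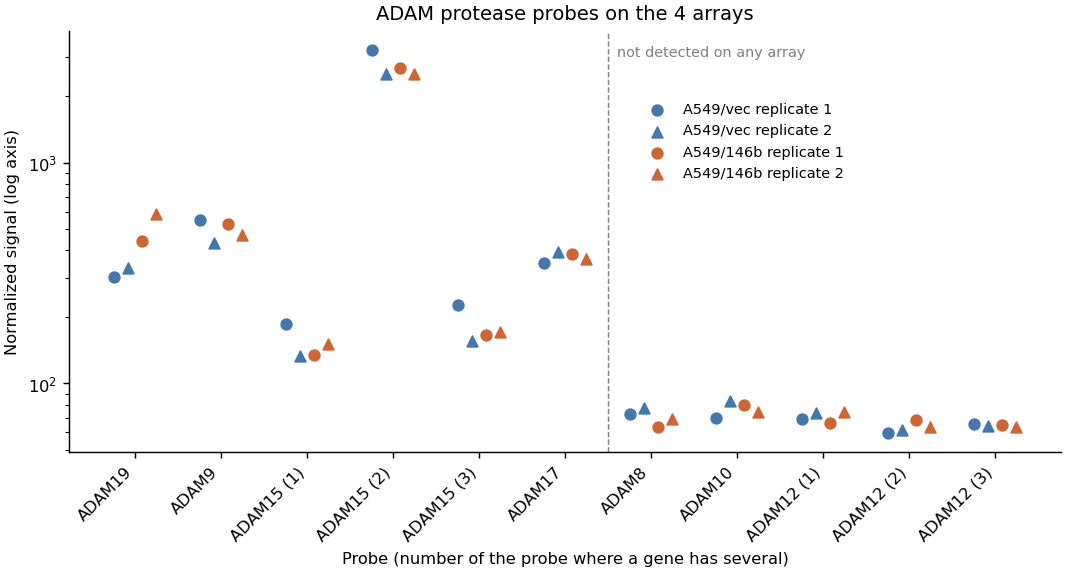
Normalized signal (log axis) of the 11 ADAM probes on the 4 arrays, with circles for replicate 1 and triangles for replicate 2, A549/vec in blue and A549/146b in orange. The ADAM19 signals of A549/146b (440.0 and 587) lie above those of A549/vec (305 and 333), while the cell-lines overlap at the other 5 detected probes. Heights are not comparable between probes, and the 5 probes right of the dashed line were not detected. ADAM15 and ADAM12 probes are numbered in the order in which the text gives them.

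Across all tested probes, 98 (0.928%) were called different between A549/146b and A549/vec in the paired limma fit, 46 of them higher and 52 lower in A549/146b. The count depended on the processing and was 12 in the fit without the replicate block. Of the 6 tested ADAM probes 1 was called, that of ADAM19, from which nothing is read since it was chosen by this difference. It was not called without the block, after neqc, with no filter on detection, or in an unpaired fit without A549/146b replicate 2. The other 5 ADAM probes were not called in the paired fit. With only 2 arrays a cell-line, arrays that do not overlap are common, being found at 44% of the tested probes. Among the 6 ADAM probes ADAM19 was the only one.

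ADAM17, the TNF-converting enzyme and the main sheddase of several EGF receptor ligands, gave 353 and 394 in A549/vec and 384 and 368 in A549/146b. The A549/146b arrays lay between the A549/vec arrays. On the log2 scale A549/146b was 0.12 above A549/vec on occasion 1 and differed by -0.10 on occasion 2, with a mean of 0.01.

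ADAM9, also called meltrin gamma, a widely expressed member able to shed heparin-binding EGF-like growth factor, gave 548 and 432 in A549/vec and 527 and 469.6 in A549/146b. Its differences of -0.06 and 0.12 also had opposite signs on the 2 occasions, with a mean of 0.03. In both cell-lines the array of occasion 1 was the higher one.

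ADAM15, or metargidin, which has an integrin-binding RGD motif in its human disintegrin domain, was measured by 3 probes annotated to different transcripts. The 1st probe (NM_207191) gave 186 and 134 in A549/vec and 134 and 150.5 in A549/146b. The 2nd probe (NM_207195) gave 3223 and 2529 in A549/vec and 2692 and 2519 in A549/146b. The 3rd probe (NM_003815) gave 227 and 156 in A549/vec and 166 and 171 in A549/146b. At all 3 probes A549/vec replicate 1 was the highest array.

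The mean log2 differences of the ADAM15 probes were -0.15, -0.13 and -0.16 in the same order, but these rested on occasion 1. There the differences were -0.47, -0.26 and -0.45, whereas on occasion 2 they were 0.17, -0.01 and 0.14. Without A549/vec replicate 1, and so without pairing, the 3 mean differences turned to 0.09, 0.04 and 0.11. Before normalization, the 2nd probe gave 2760 and 2752.5 in A549/vec and 2737.8 and 2325.8 in A549/146b, so that its A549/vec duplicates differed by far less than after it. The 1st and 3rd probes were highest on A549/vec replicate 1 before normalization too. They gave 156.8 and 192 there, against 129.2 and 155.1 on replicate 2. The mean signals of these 2 arrays before normalization were 394 and 480, so equal values before normalization need not mean equal levels.

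A549/vec replicate 1 was also the array with the highest epithelial keratin signals. The summed normalized signal of 6 epithelial markers, KRT8, KRT18, KRT19, KRT7, CDH1 and EPCAM, was 17833 on it and 11998 to 12743 on the other arrays. Of these markers of the labelled lung epithelial origin 5 of 6 were detected, and EPCAM was not. None of 6 fibroblast and none of 5 endothelial markers was detected, and of 5 leukocyte markers on the array 2 were.

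**Figure D2:**
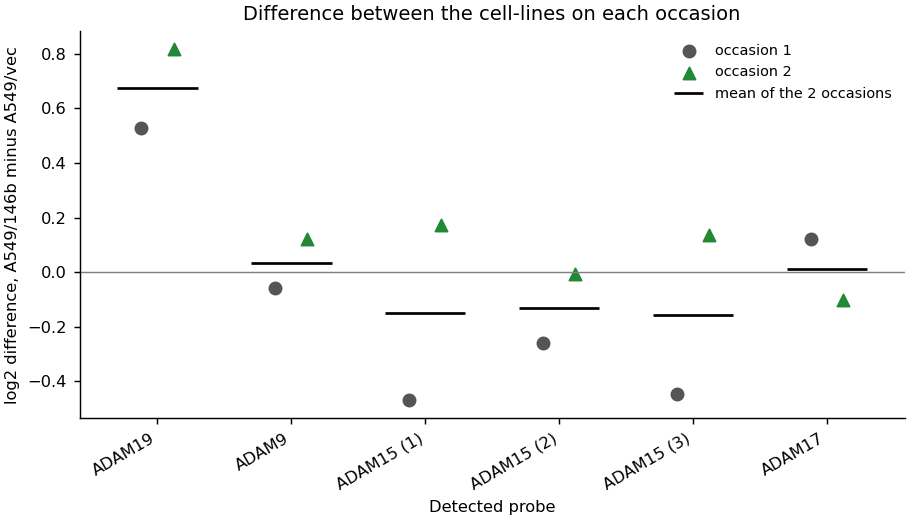
Log2 difference in normalized signal, A549/146b minus A549/vec, for the 6 detected ADAM probes on occasion 1 (grey circles) and occasion 2 (green triangles), with the mean of the 2 as a bar. ADAM19 is above 0 on both occasions (0.53 and 0.82), ADAM9, ADAM17 and the 1st and 3rd ADAM15 probes change sign between occasions, and the 2nd ADAM15 probe is below 0 on both (-0.26 and -0.01).

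Over the 6 tested ADAM probes the median of the mean log2 differences was -0.06, against -0.002 over all tested probes. The 3 ADAM15 probes weigh on this median, as they share a gene and cannot count as separate evidence. Leaving ADAM19 out, none of the 5 other probes differed by more than 0.16 in size. Differences of that size or less were found at 62.8% of all tested probes. The fit's standard error of a log2 difference was 0.14 to 0.15, so that differences of about the size seen at ADAM15 were not distinguishable from 0 with these arrays.

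The undetected members gave signals from 59.6 to 83.4, and no fold is given for them. ADAM8, a protease best known from leukocytes, gave 72.6 and 77.1 in A549/vec and 63.8 and 69.1 in A549/146b. These arrays do not overlap, but every detection p was above the limit (0.0906 and 0.0421, then 0.615 and 0.175). ADAM10, the sheddase of Notch receptors, E-cadherin and N-cadherin, gave 69.5 and 83.4 in A549/vec and 80.2 and 74.6 in A549/146b. Its detection p was 0.0291 at the lowest, on A549/vec replicate 2.

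ADAM12, or meltrin alpha, the relative often named together with ADAM19, had 3 probes. The 1st (NM_003474), for the long membrane-anchored form, gave 68.7 and 73.8 in A549/vec and 66.2 and 74.6 in A549/146b. The 2nd and the 3rd are annotated to NM_021641, the short form, which lacks the membrane anchor and is secreted. They gave 59.6 to 68.6 and 63.3 to 65.4 over the 4 arrays. A probe without signal shows that this probe was not bright enough on these arrays, and the absence of the transcript or of the protein was not measured.

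Beyond the 7 genes, the ADAM family was hardly detectable. Of 13 other ADAM genes on the array only ADAM23, a member without protease activity, was tested, and none of 18 genes of the secreted ADAMTS relatives was. ADAM23 gave 123 and 140.4 in A549/vec, both detected, and 109.7 and 111 in A549/146b, where it was not detected. It was not called. Since it passed the filter only through the A549/vec arrays, where it was higher, no fold or p-value is given and nothing is read from its direction.

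The probes whose values over the 4 arrays lay closest to those of ADAM19 were sought by the Euclidean distance between log2 values, each probe centred on its own mean. The 5 nearest genes were TMTC3 (distance 0.192), NUAK1 (0.212), COL4A1 (0.231), WTAP (0.243) and SOWAHC (0.245). NUAK1 is a kinase related to AMPK, COL4A1 a chain of basement membrane collagen and WTAP a subunit of the RNA m6A methyltransferase complex. Over only 4 arrays such likeness is a description of the same contrast between the cell-lines by which ADAM19 was chosen. The study had already listed ADAM19, TMTC3 and COL4A1 as higher in A549/146b on these arrays. The signals of TMTC3, an endoplasmic reticulum mannosyltransferase, were 155 and 182 in A549/vec and 239 and 273 in A549/146b.

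None of the 5 nearest genes had the spread between A549/146b duplicates that ADAM19 had. Their A549/146b duplicates differed by 0.13 to 0.19 on the log2 scale against 0.42 for ADAM19. The other ADAM probes were much farther away, with distances of 0.75 (ADAM17), 0.83 (ADAM9) and 0.94 to 0.99 (ADAM15). The median distance over all tested probes was 0.76.

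**Figure D3:**
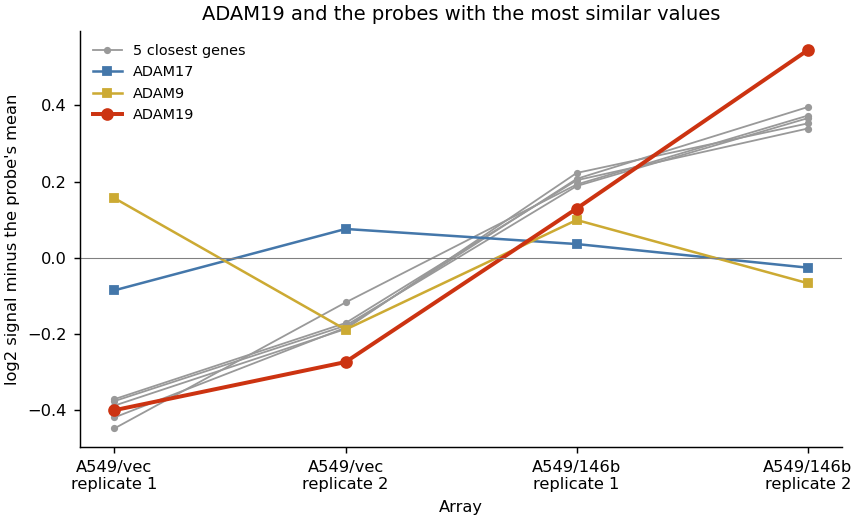
Log2 normalized signal minus the probe's own mean on the 4 arrays, for ADAM19 (red), ADAM17 (blue), ADAM9 (yellow) and the 5 genes nearest to ADAM19 (TMTC3, NUAK1, COL4A1, WTAP and SOWAHC, grey). Lines only join the arrays of one probe. ADAM19 and the 5 genes are low in both A549/vec arrays and high in both A549/146b arrays, with ADAM19 the highest of them on A549/146b replicate 2.

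Genes that mature, restrain or are cut by ADAM proteases were then counted, with 1 probe a gene. Over the 8290 genes tested, 40 (0.483%) were higher and 37 (0.446%) were lower in A549/146b, 1027 had an unadjusted p under 0.05, and the median log2 difference was 0.01. The lists were chosen with earlier results of these arrays known.

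Of 18 genes for ADAM maturation and trafficking on the array, 15 were tested and none was called in either direction (limma), with 2 at an unadjusted p under 0.05. Their median log2 difference was -0.06. The 2 were TSPAN15, a tetraspanin that escorts ADAM10, at -0.31 (adjusted p = 0.344) and PACS2, a sorting protein that sustains ADAM17 at the cell surface, at -0.28 (adjusted p = 0.401). TSPAN15 gave 255 and 236 in A549/vec and 192 and 205 in A549/146b. The highest differences were those of SH3D19 (0.28, adjusted p = 0.412) and SH3PXD2A (0.19, adjusted p = 0.632), both SH3-domain adaptors that bind ADAM tails. That of SH3D19 was 0.46 on occasion 1 and 0.10 on occasion 2. FURIN, a convertase that removes ADAM prodomains, was detected on 2 arrays, 1 of each cell-line, and its difference was 0.03.

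Of the inhibitors, TIMP1, TIMP2 and TIMP4 were tested and none was called, and none had an unadjusted p under 0.05. TIMP1 gave 4144 and 3923 in A549/vec and 3846 and 3989 in A549/146b, a mean difference of -0.04. The brighter TIMP2 probe had a difference of 0.16 and the other TIMP2 probe 0.00, while TIMP4 had 0.03. The 0.00 of the dimmer TIMP2 probe was the mean of -0.30 on occasion 1 and 0.31 on occasion 2. TIMP3, a strong inhibitor of ADAM17, was on the array but was not detected.

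Of 9 EGF family substrates on the array, 6 were tested and none was called, with 1 at an unadjusted p under 0.05. The median log2 difference was 0.14, and the 5 detected in both cell-lines were above 0, as were 52.1% of all genes. The 6th, BTC, was detected in A549/vec only and is given no difference, although its signals enter the median. NRG4, a ligand of the ERBB4 receptor, had the highest difference, 0.39 (adjusted p = 0.177), with 112 and 122 in A549/vec and 155 and 153 in A549/146b. TGFA, a ligand shed by ADAM17, had 0.23 (adjusted p = 0.542), with 0.43 on occasion 1 and 0.03 on occasion 2.

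NRG1, neuregulin 1, was read because the mouse protein is a known substrate of ADAM19. Of its 4 probes 1 was detected, with signals of 699.8 and 682 in A549/vec and 784 and 766 in A549/146b. The cell-lines did not overlap, and the differences were 0.16 and 0.17 on the 2 occasions, but NRG1 was not called (limma, adjusted p = 0.696).

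Of 34 adhesion and signalling substrates on the array, 21 were tested, 1 was higher and none was lower in A549/146b, and 7 had an unadjusted p under 0.05. Their median log2 difference was 0.13, and 14 of 21 were above 0. The gene that rose was CDH2, N-cadherin, a substrate of ADAM10, with 1151 and 1007 in A549/vec and 1952 and 1765 in A549/146b. Its difference was 0.76 on occasion 1 and 0.81 on occasion 2, larger than the difference between either pair of duplicates (limma, adjusted p = 8.46e-05). The study had already listed CDH2, like ADAM19, as higher in A549/146b on these same arrays, so the call of CDH2 here is not separate evidence. CDH2 was also called in the fit without the replicate block, but not with no filter on detection, nor in an unpaired fit on 3 arrays without A549/146b replicate 1. CDH1, E-cadherin, another substrate of ADAM10, had the lowest value, -0.27 (adjusted p = 0.437), with 412 and 317 in A549/vec and 360.5 and 250.1 in A549/146b.

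AXL, a receptor tyrosine kinase shed by ADAM10 and ADAM17, had 2 probes that fell on different sides of the threshold. The brighter probe, which stood for the gene in the list, had a log2 difference of 0.42 (adjusted p = 0.142) and the other probe 0.53 (adjusted p = 0.035). The brighter probe gave 2747 and 2679 in A549/vec and 4187 and 3141 in A549/146b, so that both A549/146b arrays were higher. TNFRSF1A, the TNF receptor shed by ADAM17, had -0.18 (adjusted p = 0.667), with -0.46 on occasion 1 and 0.10 on occasion 2.

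All 5 gamma-secretase subunit genes on the array were tested and none was called, nor had any an unadjusted p under 0.05. Their median was -0.05 and none was above 0. The lowest were APH1A at -0.26 (adjusted p = 0.463) and PSEN2 at -0.16 (adjusted p = 0.703). On occasion 1 they were at -0.46 and -0.27, and on occasion 2 at -0.05 and -0.06.

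**Figure D4:**
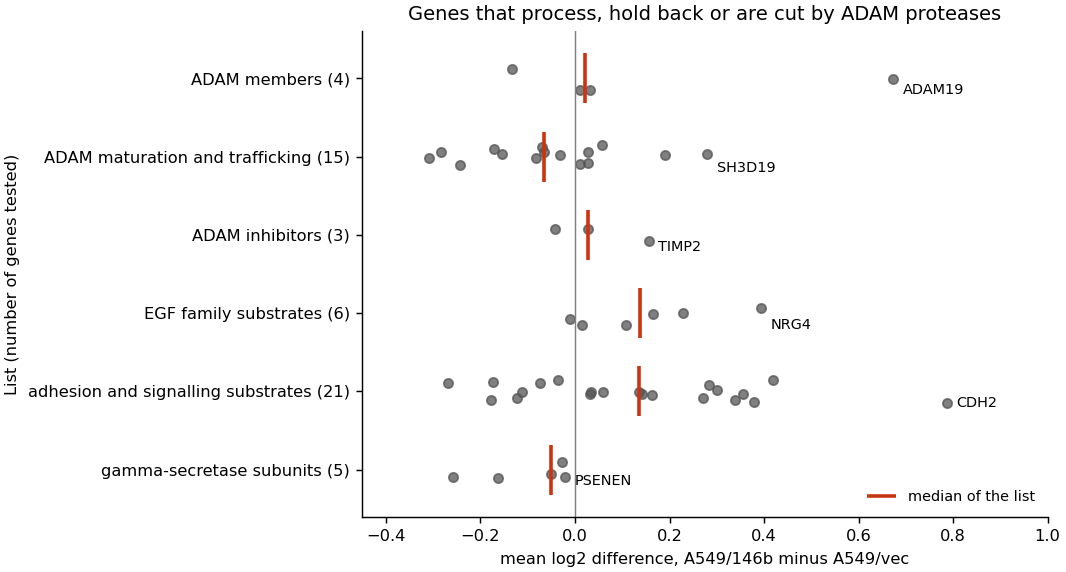
Mean log2 difference in normalized signal, A549/146b minus A549/vec, for each tested gene of 6 lists, with the list's median in red and the gene of the highest value named. CDH2 (0.79) and ADAM19 (0.67) lie apart from the others, and the list medians run from -0.06 to 0.14. BTC, of the EGF family list, was not detected in A549/146b and is drawn at its fitted value. The vertical position within a list only separates the points.

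The promoters of the members, taken as 250 bases before to 50 after the gene start in RefSeq (GRCh38.p14), were compared as a feature that the choice of genes had not used. Promoters of 6 of the 7 genes were matched, the exception being ADAM9. All 6 were CpG-rich, with a GC content over 50% and a CpG ratio, observed over expected, over 0.6, which held for 46.8% of 27305 promoters and 65.2% of those of genes on the array. The ADAM19 promoter had 75.7% GC and 26 CpG dinucleotides, and its ratio of 0.61 was just over the limit, the lowest of the 6.

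The letters GGGCGG of a GC box, on either strand, were found 6 times in the ADAM15 promoter, 3 times each in those of ADAM8, ADAM12 and ADAM17, and once in that of ADAM10. They were not in the ADAM19 window and were present in 44.6% of all promoters. None of the 6 held TATAAA, present in 11.95% of all promoters, or TGACTCA, present in 4.92%. Among genes on the array, 65.5% of those with a CpG-rich promoter had a tested probe, against 24.7% of the others. The 6 ADAM genes, all CpG-rich, were split between 3 with a detected probe and 3 without.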

How the data were processed

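RNA of 2 A549/vec and 2 A549/146b cultures was hybridized to Illumina bead arrays. The authors' deposited intensity values are GenomeStudio signals before normalization and signals processed in lumi 1.14 under R 2.11.1, which are on a linear scale. The deposited detection p-values set each signal against negative control beads. Log2 of the normalized signals was taken here. The test was limma 3.58.1 (R 4.3.3), run on the 10559 probes that any of the arrays detected at p under 0.01, blocked on occasion (replicate number), with p-values adjusted by Benjamini-Hochberg and a threshold of 0.05. The study's methods compare the cell-lines in pairs of concurrent cultures, and replicate numbers were read as occasions, although deviations of same-numbered arrays correlated at r = -0.05. The fit left 1 residual degree of freedom to which limma added 1025, so p-values rest on a spread shared over probes. A permutation of 2 against 2 arrays cannot go below p = 0.333. Array number limits the precision. Symbols came from the platform annotation, and 2692 probes had no single symbol.

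The members and lists were chosen with earlier results of these data known. Every probe of the 7 genes is named. Of each list, called genes and up to 2 with the largest difference each way are named, with the brightest tested probe standing for a gene. FURIN, NRG1, TIMP3, TIMP4 and the second probes of TIMP2 and AXL were named beside these after their values were seen. Alternatives were no block, 3 other normalizations, 2 other filters and leaving out each array, the last in a fit without the block, since 3 arrays leave no residual degree of freedom with it.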

Additional observations from a re-analysis of the deposited data

How the results depend on the processing

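Against 98 probes called in the paired fit, 12 were called without the replicate block, 21 after neqc, 53 after median scaling, 77 after quantile normalization, 33 when all 4 arrays had to detect a probe and 0 with no filter on detection. Fits that left out 1 array also dropped the block, so 2 choices changed together and their counts compare with 12 rather than 98. They ran from 12 (without A549/146b replicate 1) to 868 (without A549/vec replicate 2), with 49 without A549/vec replicate 1 and 21 without A549/146b replicate 2. The cause was not tested.

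The ADAM19 difference was 0.67 in the paired fit and 0.69 to 0.76 under the other normalizations. It did not move without the replicate block, and ran from 0.47 to 0.88 without 1 array and without pairing. ADAM19 was not among the called probes without the block, after neqc, with no filter or, unpaired, without A549/146b replicate 2. The median over the ADAM probes kept its sign under each alternative except without A549/vec replicate 1, where it was 0.10 (range without 1 array -0.22 to 0.10). CDH2 was the 1 gene called in the lists, the ADAM members left aside. With no filter 0 were called, and without 1 array and the block 0 to 7, the 7 being CDH1, CDH2, JAG1, MET, NRG4, PRNP and PTPRK without A549/vec replicate 2. The replicate block changed no call in these lists, whereas ADAM19 lost its call without it. Differences under about 0.16 on the log2 scale are close to the fit's standard error and were not resolvable. Larger ones were not always called either, such as 0.39 at NRG4 and 0.42 at the brighter AXL probe. A gene that was not called is therefore not shown to be unchanged.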
